A study of Mus musculus with 8 samples.

Results

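The genes described here are the Wnt ligands, their Fzd and Lrp receptors, their secreted inhibitors, the R-spondins and 3 widely used targets of the pathway, followed by symbol in RNA-seq of JunB cKO and wild type mouse skin. They were taken by gene symbol: 19 Wnt genes, 12 receptors (Fzd1 to Fzd10, Lrp5 and Lrp6), 11 inhibitors and Dkk family genes (Dkk1 to Dkk4, Dkkl1, Sfrp1, Sfrp2, Sfrp4, Sfrp5, Frzb and Wif1), 4 R-spondins, and Axin2, Lef1 and Nkd1. All 49 were listed in each of 3 tables, out of 26340 gene symbols for unperturbed keratinocytes, 46036 for skin 4 days after hair plucking and 46048 for wounds at day 30.

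All mice were C57BL/6. In JunB cKO mice, Cre recombinase driven by the K14 promoter deleted floxed JunB alleles in basal epidermal progenitors and their progeny, so dermal cells kept the gene, and the labels give the genotypes as JunB -/- and JunB +/+. Unperturbed mice were 60 days old and carried no treatment label, plucked mice were depilated at 54 days and sampled at 58 days, and wounds were full-thickness punches of 6 mm, 4 per mouse. Each library was made from the combined RNA of 3 samples. The labels list 1 library per genotype for the unperturbed and plucked groups and 2 for wounds, but each table gives a single value per genotype, so no difference below has a replicate check and no p-value is given.

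Wnt ligands are lipid-modified secreted proteins that bind Fzd receptors together with Lrp5 or Lrp6, which stabilises beta-catenin and lets it act with Lef1 and Tcf factors on target genes. Sfrp proteins, Frzb and Wif1 bind the ligands, Dkk proteins bind Lrp5 and Lrp6, and R-spondins keep Fzd and Lrp receptors at the cell surface. In skin, the pathway is known for starting the growth phase of the hair follicle and for fixing the fate of hair cells, while Wnt5a, Wnt11 and some others also signal without beta-catenin.

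Sequence just upstream of the start sites is shown for Axin2 and Wnt16, which had the largest log2 ratios of the 49 genes after plucking, and for every window in which a site was found. The 250 bases before each start were searched on both strands for the AP-1 site TGACTCA, the kind of site that JunB-containing dimers bind, and for the LEF/TCF sites CTTTGAA and CTTTGAT. RefSeq windows on GRCm38.p6 were matched by symbol to 33 of the 49 genes (39 windows). The Axin2 window lies at chr11:108920099-108920348 on the plus strand and the Wnt16 window at chr6:22287977-22288226 on the plus strand, and neither holds any of these letters. The AP-1 site was found in 1 of the 39 windows, that of Wnt5b, as compared to 4.46% of 32851 windows of all genes. LEF/TCF sites were found in 3 of the 39, those of Dkk1, Wnt11 and Wnt5b, as compared to 7.48% of all windows. The Wnt5b sites begin 191 bases (chr6:119544520-119544549, minus strand) and 71 bases (chr6:119449439-119449468, minus strand) before different start sites, the Wnt11 site 51 bases before its start (chr7:98835050-98835079, plus strand) and the Dkk1 site 117 bases before its RefSeq start (chr19:30549595-30549624, minus strand). The Dkk1 locus as listed after plucking and in wounds (30545863 to 30549665) starts farther upstream and includes this site. Capitals mark the matched letters, read 5′ to 3′ on the strand of the gene, and a match or its absence says nothing about binding.
Axin2: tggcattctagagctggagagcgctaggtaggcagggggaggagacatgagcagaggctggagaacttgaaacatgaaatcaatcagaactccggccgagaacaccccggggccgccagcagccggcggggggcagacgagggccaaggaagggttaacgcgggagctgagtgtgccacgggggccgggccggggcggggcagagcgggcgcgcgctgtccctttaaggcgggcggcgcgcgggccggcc
Wnt16: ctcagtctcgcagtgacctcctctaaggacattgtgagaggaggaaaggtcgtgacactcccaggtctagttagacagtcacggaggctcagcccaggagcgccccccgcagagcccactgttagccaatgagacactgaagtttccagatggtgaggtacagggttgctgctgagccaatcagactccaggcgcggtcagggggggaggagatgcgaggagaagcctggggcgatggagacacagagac
Wnt5b, AP-1: tcaccaaaaggTGAGTCAcgcgtccgcgct
Wnt5b, LEF/TCF: agtaagtctctCTTTGATctgctccctgtc
Wnt11, LEF/TCF: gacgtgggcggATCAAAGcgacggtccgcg
Dkk1, LEF/TCF: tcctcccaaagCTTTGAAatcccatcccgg

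Values are FPKM, reads normalized to transcript length and library size, as the authors calculated them, so levels of different genes can be compared within a sample. The tables were normalized separately, and levels in different tables are only set side by side. Differences are given as log2((cKO + 1)/(WT + 1)), here called the log2 ratio, and a gene is called higher or lower in JunB cKO past 2-fold on this scale, which understates the difference of genes with low FPKM. Where a pair of values is given, wild type stands first and JunB cKO second. Junb was lower in JunB cKO in every table, with 268 FPKM in wild type as compared to 31.4 FPKM in JunB cKO keratinocytes, 40.8 and 11.7 after plucking, and 33.4 and 15.4 in wounds. From the steps in which low values of short genes come, 1 FPKM stood for about 13.3 reads per kb in unperturbed wild type but 3.92 in JunB cKO, for 12.8 and 10.2 after plucking, and for 34.0 and 31.5 in wounds. Ratios of FPKM below carry a 95% interval from these estimated reads, which covers counting error only. Markers of cell types placed the tables apart. The summed FPKM of 7 fibroblast genes was 14.4 in wild type as compared to 14.2 in JunB cKO in the unperturbed pair, 5152 and 1869 after plucking, and 10716 and 13573 in wounds. The unperturbed pair thus carried the markers of its keratinocyte label, with little of the dermis. The plucked pair, whose labels name both keratinocyte and skin biopsy, carried dermal markers as skin does.

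**Figure D1:**
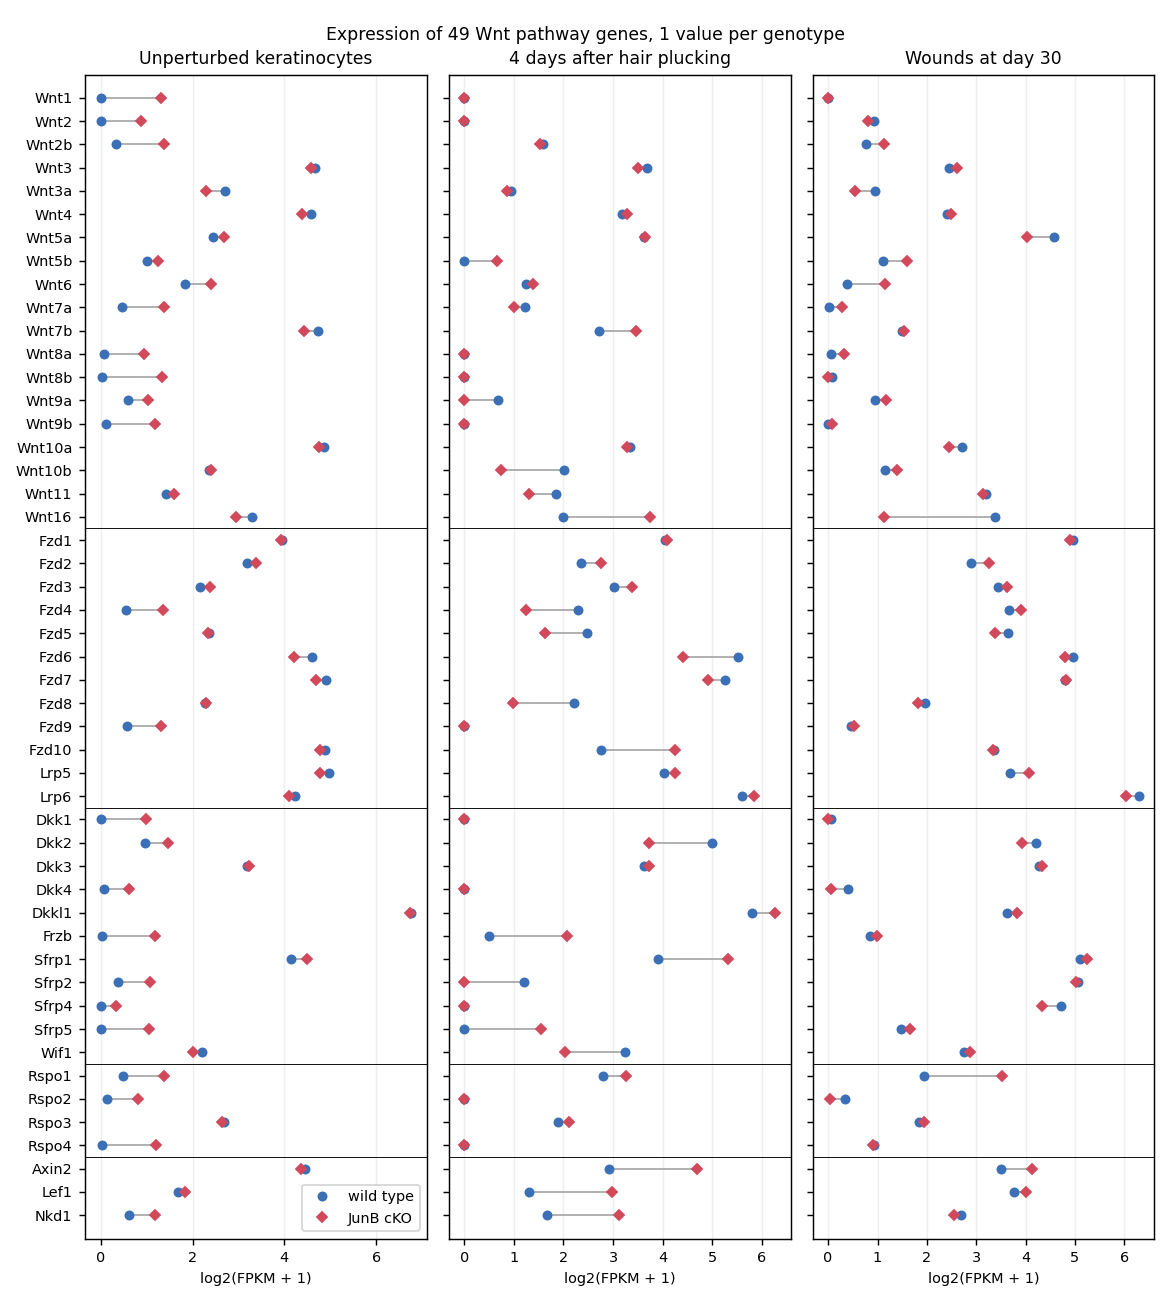
Level of each of the 49 genes as log2(FPKM + 1) on the horizontal axis, with wild type as circles, JunB cKO as diamonds and black lines between ligands, receptors, inhibitors, R-spondins and targets. Genes near 0 in wild type keratinocytes lie farther right in JunB cKO, the plucked pair differs in both directions, and in wounds Wnt16 and Rspo1 stand apart.

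Hair plucking gave the most genes past 2-fold of the 3 comparisons. In JunB cKO, 8 of the 49 genes were higher and 7 were lower 4 days after plucking, where 6.42% of all genes were higher and 5.62% lower (12.0% in either direction). The targets Axin2, Lef1 and Nkd1 were all higher, as were Wnt16, Fzd10, Sfrp1, Frzb and Sfrp5, whereas Dkk2, Wif1, Sfrp2, Wnt10b, Fzd4, Fzd6 and Fzd8 were lower. Because 11 of the 49 genes were listed at 0 in both genotypes, the counts are better read by level. Among genes with at least 3 FPKM in the higher genotype, 13 of 29 were past 2-fold (44.8%), as compared to 30.5% of 13204 genes at that level. Their median log2 ratio was 0.22, as compared to 0.02 for all genes at that level.

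Axin2 (chromosome 11, 108920349 to 108950783, plus strand), a scaffold of the beta-catenin destruction complex that is itself induced by Wnt signaling, had 6.51 FPKM in wild type as compared to 24.9 FPKM in JunB cKO after plucking. The log2 ratio was 1.78, the largest of the 49 genes in this table, and the ratio of FPKM was 3.82 (95% interval 3.38 to 4.32). Lef1 (chromosome 3, 131109026 to 131224356, plus strand), the DNA-binding partner of beta-catenin in hair precursors, had 1.46 FPKM in wild type as compared to 6.94 FPKM in JunB cKO, with a log2 ratio of 1.69 and a ratio of 4.75 (3.61 to 6.36). Nkd1 (chromosome 8, 88521344 to 88594887, plus strand), a feedback inhibitor that binds Dishevelled, had an FPKM of 2.17 and 7.68, with a log2 ratio of 1.46 and a ratio of 3.55 (2.86 to 4.45). All 3 targets were thus past 2-fold in the same direction in the plucked pair. At the Axin2 locus, the antisense gene Gm11670 was listed at 2.37 in wild type as compared to 0 in JunB cKO, and Gm42449, on the same strand as Lef1, at 0 and 1.21.

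Of the 19 ligands, 11 reached 1 FPKM after plucking. Wnt16 (chromosome 6, 22288227 to 22298522, plus strand), a ligand expressed in the hair follicle and interfollicular epidermis, had 2.95 FPKM in wild type as compared to 12.5 FPKM in JunB cKO. Its log2 ratio was 1.77 and its ratio 4.23 (3.47 to 5.23), and it was the only ligand called higher. Wnt10b, a ligand known to promote hair growth, was the only ligand called lower, with an FPKM of 3.04 and 0.669 and a log2 ratio of -1.27. Wnt7b, another ligand of the follicle, had an FPKM of 5.59 and 10.1, just inside the limit with a log2 ratio of 0.75. The ligands with the highest levels in wild type differed little. Wnt3 had an FPKM of 11.8 and 10.3, Wnt5a of 11.3 and 11.6, Wnt10a of 9.11 and 8.73, and Wnt4 of 8.12 and 8.73. Wnt16 with 12.5 FPKM was therefore listed above every other ligand in plucked JunB cKO skin, a place held by Wnt3 in wild type. Wnt8b and Wnt9b were listed at 0 in both genotypes, Wnt5b at 0 and 0.568, Wnt9a at 0.59 and 0, and Wnt7a at 1.32 and 0.993.

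Among the receptors, Fzd10 was higher and Fzd4, Fzd6 and Fzd8 were lower. Fzd10 had 5.77 FPKM in wild type as compared to 18.1 FPKM in JunB cKO, with a log2 ratio of 1.497 and a ratio of 3.14 (2.69 to 3.65). Fzd6, a receptor known for hair orientation, had an FPKM of 45.01 and 20.2 with a log2 ratio of -1.12, but the authors' program marked this locus as failed. Fzd8 had an FPKM of 3.64 and 0.963 with a log2 ratio of -1.24. The receptors thus differed in both directions. Fzd4, also the receptor of the ligand norrin, had an FPKM of 3.87 and 1.38 with a log2 ratio of -1.03, and Fzd5 had 4.59 and 2.07, inside the limit with a log2 ratio of -0.87. The co-receptors differed little, with an FPKM of 47.7 and 56.2 for Lrp6 and of 15.4 and 18.1 for Lrp5. Fzd7 had an FPKM of 37.4 and 29.03, and Fzd1 of 15.6 and 15.9.

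The inhibitors split evenly, with 3 higher and 3 lower of 11, of which 8 reached 1 FPKM and 3 were listed at 0 in both genotypes. Of all genes with at least 1 FPKM in the higher genotype, 18.2% were higher and 16.0% lower. The calls of Sfrp5 and Sfrp2 rest on a 0 in 1 genotype beside less than 2 FPKM in the other. Sfrp1, a decoy that binds Wnt ligands, had 14.0 FPKM in wild type as compared to 39.1 FPKM in JunB cKO, with a log2 ratio of 1.41 and a ratio of 2.78 (2.55 to 3.03). Its relative Frzb had 0.416 and 3.21 with a log2 ratio of 1.57, and Sfrp5 was listed at 0 and 1.92. All 3 higher inhibitors were therefore members of the Sfrp group. Dkk2, which binds the Lrp co-receptors, had an FPKM of 31.0 and 12.1, with a log2 ratio of -1.29 and a ratio of 0.391 (0.352 to 0.435). Wif1, which binds ligands through a domain of its own, had 8.40 and 3.06 with a log2 ratio of -1.21, and Sfrp2 was listed at 1.29 and 0. The direction of the Sfrp genes was therefore not uniform. Dkkl1, a Dkk relative not known to block Wnt signaling, was the gene with the highest level of the 49 in both genotypes, with an FPKM of 54.8 and 76.2. Of the R-spondins, Rspo1 had 5.98 and 8.54 and Rspo3 2.71 and 3.33, while Rspo2 and Rspo4 were listed at 0 in both genotypes.

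**Figure D2:**
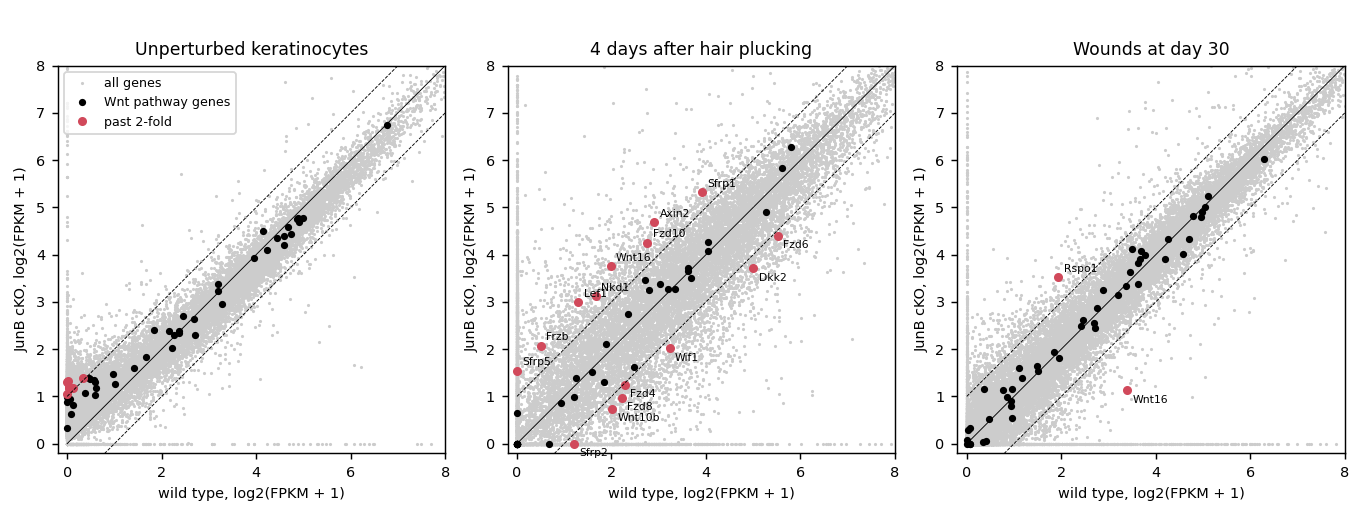
Wild type on the horizontal and JunB cKO on the vertical axis, both as log2(FPKM + 1) up to 8, for all genes (grey) and the 49 Wnt pathway genes (black, or red past 2-fold), with dashed lines at 2-fold. After plucking 15 of the 49 genes are past a line, in wounds 2, and in unperturbed keratinocytes 7, all near the origin.

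In other genes of the pathway, listed by role, 7 of 45 were higher and 3 were lower after plucking. Of 16221 genes with at least 1 FPKM in the higher genotype, 18.2% were higher and 16.0% lower. The 45 were counted at any level, 2 of them at 0 in both genotypes, and of all genes 6.42% were higher and 5.62% lower. Znrf3, a ubiquitin ligase that removes Fzd receptors and is also induced by the pathway, had an FPKM of 4.16 in wild type as compared to 10.01 in JunB cKO (log2 ratio 1.09). The receptor kinase Ror1 had 1.43 and 5.95 (1.51), and Kremen2, a receptor of Dkk proteins, had 0.384 and 2.17 (1.196). Nog, a BMP antagonist placed in the list of extracellular inhibitors, was listed at 0 and 1.87. Of the nuclear factors, 3 of 8 were higher and 2 lower: Pygo2, a co-activator of beta-catenin, had 3.66 and 19.98 (log2 ratio 2.17) and Tcf7 was listed at 0 and 2.97. Tcf7l1, a repressor in bulge cells, had 14.0 and 1.94 (log2 ratio -2.35). Axin1, the constitutive relative of Axin2, had 30.2 and 11.9 (log2 ratio -1.28) in the opposite direction to Axin2. Ctnnb1, which encodes beta-catenin, had 343 and 266 (log2 ratio -0.36). None of 6 other genes often used as targets was past 2-fold, although all 6 had a log2 ratio above 0. So did 51.2% of all genes with at least 1 FPKM in the higher genotype. Sp5 (0.097 and 0.49) and Bambi (0.595 and 1.19) had low levels. Of the 6, Ccnd1 had an FPKM of 16.4 and 30.4, Myc of 11.9 and 17.3, and Cd44 of 79.0 and 110.

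Markers of several cell types also differed between genotypes in the plucked pair. The summed FPKM of 10 growing hair genes was 76.4 in wild type as compared to 625 in JunB cKO, with 7 of 10 called higher, and Shh and Krt35, defining genes of the growing follicle, were listed at 0 in wild type. Melanocyte genes summed to 28.5 and 51.8, with 3 of 5 higher. Keratinocyte genes summed to 6614 and 8686, with 2 of 10 higher. Of these 10, 9 had a log2 ratio above 0, and Krt14, with an FPKM of 2446 and 1709, did not. The lists of fibroblast, leukocyte and muscle genes went the other way, and the adipocyte list was mixed. All 7 fibroblast genes were below 0 on the log2 scale, 4 of them past 2-fold, and leukocyte genes summed to 80.6 and 24.3, with 4 of 5 lower. All 4 muscle genes were lower, with sums of 196 and 25.04, and adipocyte genes summed to 189 and 68.8, with 1 higher and 2 lower of 6. The 6 dermal papilla genes summed to 40.4 and 32.0, with 1 higher and 2 lower: Corin had an FPKM of 9.25 and 0.455 and Fgf7 of 15.3 and 3.33. Bulge and outer root sheath genes summed to 1673 and 1534, with 1 of 5 higher, and endothelium genes to 70.4 and 52.8, with 1 of 5 lower. Dividing cell genes summed to 105 and 144, with 3 of 4 above 0 on the log2 scale and Cdk1 called lower. Of all genes with at least 1 FPKM in the higher genotype, 18.2% were higher and 16.0% lower. In bulk tissue, fewer cells of a type and less RNA per cell cannot be told apart, and the part of these markers in the Wnt values was not tested.

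**Figure D3:**
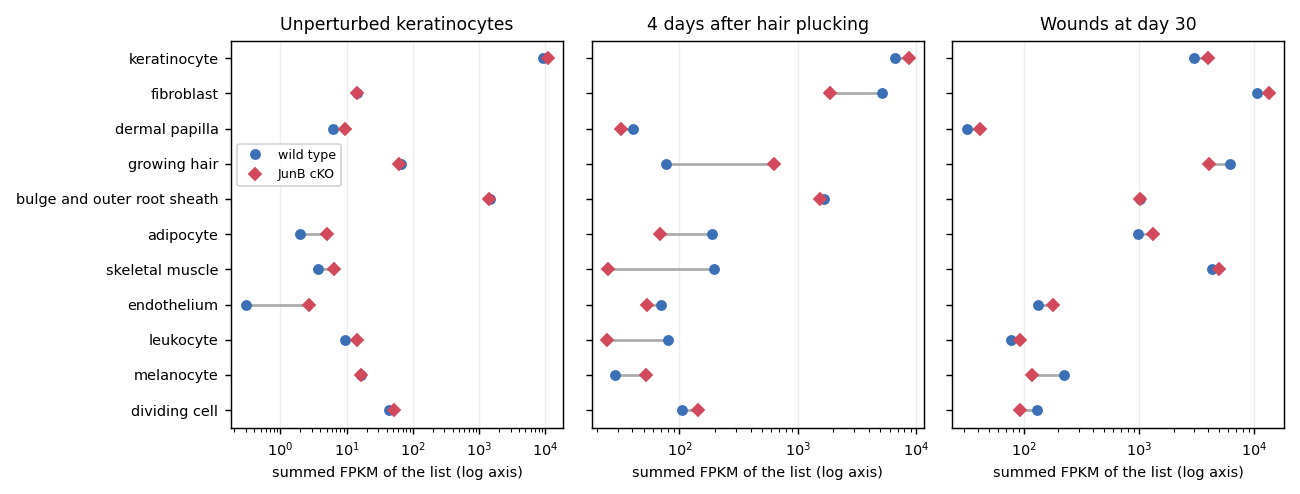
Summed FPKM of each list of cell type markers on a log axis, with wild type as circles and JunB cKO as diamonds. After plucking the growing hair list is higher in JunB cKO (76.4 and 625) and the fibroblast list lower (5152 and 1869), whereas in wounds the growing hair list is lower (6242 and 4079).

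In wounds at day 30 the pathway differed little between genotypes. Only 1 of the 49 genes was higher and 1 lower in JunB cKO, where 2.14% of all genes were higher and 1.97% lower (4.11% in either direction). Among genes with at least 3 FPKM, 2 of 27 were past 2-fold (7.41%, as compared to 9.18% of all genes at that level), and 23 of the 27 had a log2 ratio under 0.5 in size.

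Wnt16 was the gene called lower. Its FPKM was 9.46 in wild type as compared to 1.195 in JunB cKO, with a log2 ratio of -2.25 and a ratio of 0.126 (0.104 to 0.153). No other of the 49 genes was called both after plucking and in wounds, and the directions were opposite. In unperturbed keratinocytes, Wnt16 had 8.76 FPKM in wild type as compared to 6.71 FPKM in JunB cKO with a log2 ratio of -0.34. Set side by side, wild type was lowest after plucking, where JunB cKO had the highest of the 6 values. In wounds, JunB cKO had the lowest.

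Rspo1 (chromosome 4, 124957647 to 125009099, plus strand), which prolongs the response to Wnt ligands through Lgr receptors, was the gene called higher. It had 2.84 FPKM in wild type as compared to 10.4 FPKM in JunB cKO, with a log2 ratio of 1.58 and a ratio of 3.68 (3.11 to 4.38). Its receptors of the Lgr family differed less, with an FPKM of 58.9 and 54.7 for Lgr4, of 22.3 and 24.3 for Lgr5, and of 3.49 and 5.14 for Lgr6 (these 3 were named after their values were seen). In the plucked pair Rspo1 was inside the limit, with a log2 ratio of 0.45.

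Of the targets, Axin2 had 10.3 FPKM in wild type as compared to 16.4 FPKM in JunB cKO wounds, inside the limit with a log2 ratio of 0.63. Lef1 had 12.6 and 15.0 (log2 ratio 0.23) and Nkd1 had 5.43 and 4.86 (log2 ratio -0.13). The 3 targets thus did not share a direction in wounds. Wnt5a, known for signaling without beta-catenin and the ligand with the highest level in wounds, had an FPKM of 22.8 and 15.2 (log2 ratio -0.56). Wnt6 had 0.297 and 1.22 (log2 ratio 0.78) and Wnt11 8.20 and 7.84. Of the Sfrp group, 3 genes had high and like levels, with an FPKM of 33.4 and 36.6 for Sfrp1, of 32.2 and 31.3 for Sfrp2 and of 25.2 and 19.0 for Sfrp4, whereas Sfrp5 had 1.79 and 2.14 and Frzb 0.794 and 0.993. Lrp6 led the 49 genes in both genotypes, with 77.4 and 64.4. Dkk2 had 17.4 and 14.1, and Wif1 had 5.72 and 6.28. Of the 45 other pathway genes, 1 was higher and none was lower past 2-fold: Kremen2 had an FPKM of 0.132 and 1.79 (log2 ratio 1.301). Of 17346 genes with at least 1 FPKM in the higher genotype, 5.69% were higher and 5.23% lower. The 45 were counted at any level, and of all genes 2.14% were higher and 1.97% lower. Ctnnb1 had 307 and 343.

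Several marker lists differed in wounds, in both directions. The growing hair genes summed to 6242 FPKM in wild type as compared to 4079 in JunB cKO, with 1 of 10 called lower, and melanocyte genes to 226 and 117, with 2 of 5 lower. Fibroblast genes summed to 10716 and 13573 and muscle genes to 4306 and 4971, with none past 2-fold. The fibroblast sums differed mostly through Col3a1, with an FPKM of 5055 and 7735, and the median log2 ratio of that list was 0.02. Adipocyte genes summed to 986 and 1333, with 1 of 6 higher, keratinocyte genes to 3013 and 4018, with 1 of 10 lower, and dividing cell genes to 131 and 93.0, with none of 4 past 2-fold. The part of these markers in the values of Wnt16 and Rspo1 was not tested.

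**Figure D4:**
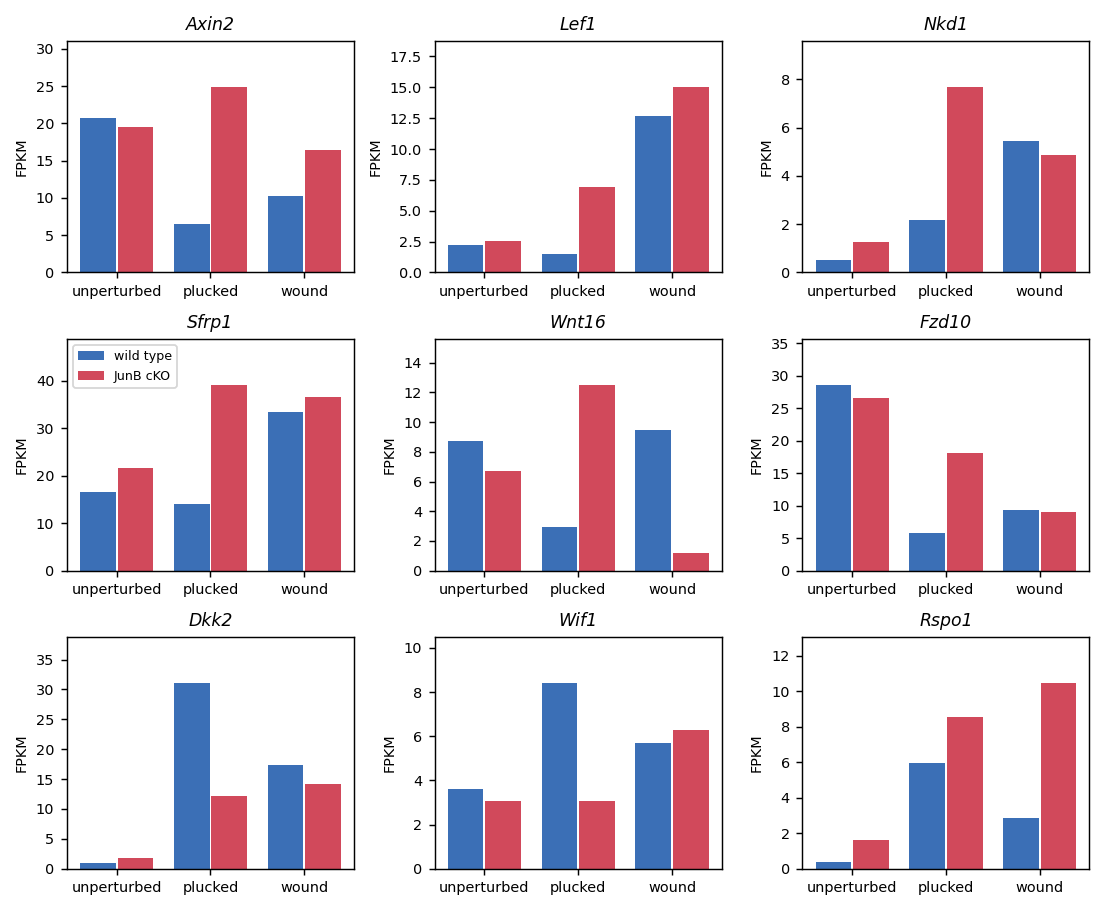
FPKM of 9 genes in wild type (blue) and JunB cKO (red) in each table, with 1 value per bar, no error bars and an axis from 0 for each gene; tables were normalized separately. Axin2, Lef1, Nkd1, Sfrp1 and Fzd10 are higher and Dkk2 and Wif1 lower in JunB cKO after plucking, and Wnt16 is higher after plucking but lower in wounds.

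In unperturbed keratinocytes the genes with clear expression were alike in both genotypes. Of 25 genes with at least 3 FPKM, none was past 2-fold, 24 had a log2 ratio under 0.5 in size, and the largest was that of Wnt6 (2.60 in wild type as compared to 4.30 in JunB cKO, log2 ratio 0.56). Few of all 10592 genes at that level were past 2-fold either (4.54%). Dkkl1 led with an FPKM of 108 and 106. The receptors followed, with 30.6 and 26.3 for Lrp5, 28.9 and 24.8 for Fzd7 and 28.5 and 26.6 for Fzd10. Of the ligands, Wnt10a had 28.2 and 25.9, Wnt7b 25.5 and 20.6, Wnt3 24.5 and 22.9, and Wnt4 22.9 and 19.9. These ligands of the epidermis were slightly below wild type, like most expressed genes: the median log2 ratio of genes with at least 1 FPKM in both genotypes was -0.15. Axin2 had an FPKM of 20.8 and 19.5 (log2 ratio -0.09), Lef1 of 2.20 and 2.58 (0.16) and Nkd1 of 0.53 and 1.27 (0.57).

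All calls in this pair were of genes close to 0 in wild type. In JunB cKO, 7 of the 49 genes were higher and 0 lower, where 9.31% of all genes were higher and 0.847% lower (10.2% in either direction), and each of the 7 had between 1 and 2 FPKM in JunB cKO. Wnt8b had an FPKM of 0.0186 and 1.52 (log2 ratio 1.305), Wnt9b of 0.0822 and 1.254 (1.06) and Wnt2b of 0.263 and 1.61 (1.04). Frzb had 0.0217 and 1.254 (1.14) and Rspo4 0.0273 and 1.29 (1.16), while Wnt1 was listed at 0 and 1.48 and Sfrp5 at 0 and 1.06. These levels stood for few reads, about 1 and 20 for Wnt8b, 1 and 15 for Frzb, and 1 and 12 for Rspo4. At 1 to 3 FPKM, 7 of 18 of the Wnt pathway genes were higher (38.9%), as compared to 40.6% of 5291 genes. All 21 of the 49 genes under 1 FPKM in wild type had a higher FPKM in JunB cKO. Most genes of low level did so: 93.6% of 7811 genes above 0 and up to 1 FPKM in the higher genotype had a log2 ratio above 0. At 1 to 3 FPKM, 84.2% did. Sensory receptor genes (1487 loci) had a median of 0 FPKM in wild type as compared to 0.543 FPKM in JunB cKO. After subtraction of this median 0 of the 49 genes were past 2-fold, where 3.54% of all genes were higher and 1.63% lower. The 7 called genes had 1 to 2 FPKM in JunB cKO, so the subtraction left little room for a call and was no test of them. Other ligands of low level lay inside the limit, with an FPKM of 1.01 and 1.39 for Wnt5b, of 0.378 and 1.62 for Wnt7a and of 0.512 and 1.03 for Wnt9a, and the Wnt5b locus overlaps Fbxl14 on the other strand. Of the 45 other pathway genes, 3 were higher and 0 lower: the inhibitors Sost and Cer1 were listed at 0 in wild type and had 1.72 and 1.301 FPKM in JunB cKO, and the target Sp5 had 0.0624 and 2.86. Gapdh was listed at 0 in both genotypes and Ppia at 0 in wild type, so a value of 0 here may not be read as absence of RNA.

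**Figure D5:**
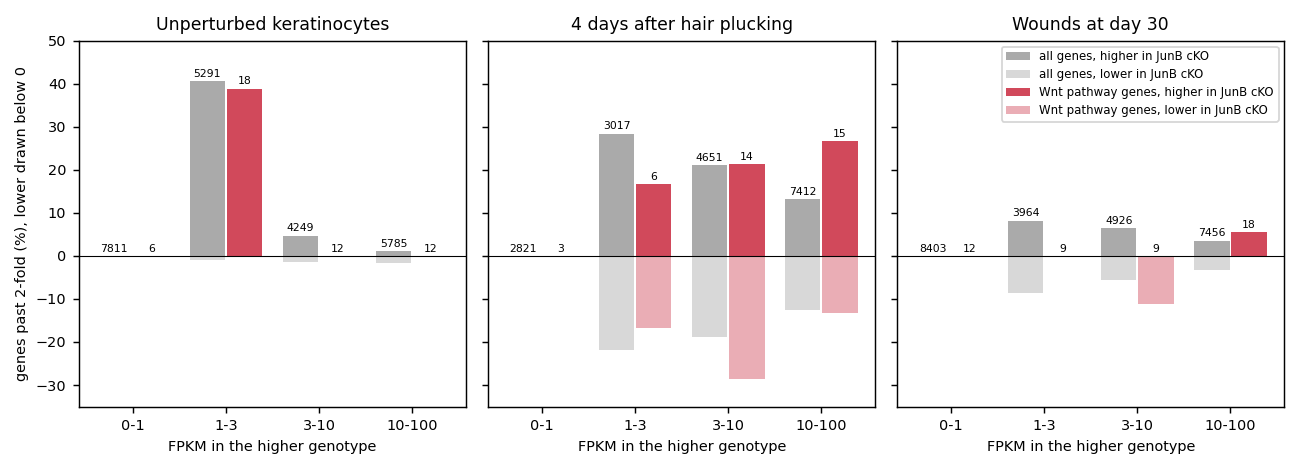
Percentage of genes past 2-fold by the FPKM of the higher genotype, with higher in JunB cKO above and lower below 0, for all genes (grey) and the 49 Wnt pathway genes (red); numbers are genes per range, and genes at 0 in both genotypes or above 100 FPKM are left out. In unperturbed keratinocytes the called genes lie at 1 to 3 FPKM, 38.9% of the Wnt pathway genes and 40.6% of all genes, whereas after plucking 40.0% of the Wnt pathway genes at 10 to 100 FPKM are past 2-fold as compared to 25.8% of all genes, and at 1 to 3 FPKM 33.3% as compared to 50.1%.

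Set side by side over the 3 tables, the genes fell into different patterns of wild type level, which were not tested since the tables were normalized separately and differ in tissue. Dkkl1 had an FPKM of 108 in keratinocytes, 54.8 after plucking and 11.3 in wounds. The epidermal ligands ran in the same order, with 25.5, 5.59 and 1.83 for Wnt7b, 24.5, 11.8 and 4.49 for Wnt3, 28.2, 9.11 and 5.57 for Wnt10a, and 22.9, 8.12 and 4.31 for Wnt4. Sfrp2, Sfrp4 and Fzd4, which were near 0 in keratinocytes, were highest in wounds. Sfrp2 had an FPKM of 0.296, 1.29 and 32.2, Sfrp4 was listed at 0, 0 and 25.2, and Fzd4 had 0.475, 3.87 and 11.7. Other genes near 0 in keratinocytes were highest after plucking, with 0.962, 31.0 and 17.4 for Dkk2 and 0.398, 5.98 and 2.84 for Rspo1. Lef1 had 2.20, 1.46 and 12.6. Fibroblast markers summed to 14.4, 5152 and 10716 in the same samples. Among the genes lower in plucked JunB cKO skin, Dkk2, Fzd4 and Sfrp2 were thus under 1 FPKM in wild type keratinocytes, while Fzd6 (23.1), Wnt10b (4.14), Fzd8 (3.799) and Wif1 (3.62) were not. Of the genes higher there, Nkd1 (0.53), Frzb (0.022) and Sfrp5 (0) were under 1 FPKM as well. Fzd10 (28.5), Axin2 (20.8), Sfrp1 (16.6), Wnt16 (8.76) and Lef1 (2.20) were not, so a low keratinocyte level did not separate the directions.

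Over the 3 comparisons, 28 of the 49 genes were called in none, and 5 were under 1 FPKM in all 6 columns. Frzb and Sfrp5 were called higher in both the unperturbed and the plucked pair, at 1 to 2 FPKM in unperturbed JunB cKO. Wnt16 alone was called in opposite directions in the plucked pair and in wounds.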

How the data were processed

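RNA of keratinocytes, plucked skin and wounds was sequenced by the study as single-end reads of 75 bases from stranded libraries without rRNA. The authors trimmed the reads, aligned them to GRCm38 (mm10, as in the submitters' processing notes) with TopHat or HISAT2, assembled loci with Cufflinks and deposited FPKM values from Cuffdiff, 1 per genotype and locus. The deposited tables also hold the authors' log2 fold changes, p-values and q-values, which were not used. Library depth is not given in the tables and was estimated from the steps of low FPKM values at loci of 800 to 1100 bp. The condition of the plucked and wound tables is given only by their names.

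For each symbol, only the locus whose FPKM values had the largest sum was taken, and log2((cKO + 1)/(WT + 1)) was calculated, with calls past 2-fold. No test was carried out, since each table has 1 value per genotype. The alternatives tried were other pseudocounts, a minimum FPKM, a 1.5-fold limit, centring, loci with the status OK, summed loci and subtraction of the sensory receptor median. Every member with at least 1 FPKM in either genotype could be named, and the others by counts, except called members and the ligands Wnt5b, Wnt7a, Wnt8b, Wnt9a and Wnt9b. Of each pathway list, up to 3 genes with the largest log2 ratio were named, plus Ctnnb1. Named outside this rule were Rspo2 and Rspo4 after plucking, Frzb in wounds, Sfrp4 where tables are set side by side, and Sp5 and Bambi after plucking. The members and lists were chosen with earlier results of these data known. Coordinates are 1-based on GRCm38 and promoter windows come from RefSeq (GRCm38.p6). The calculations were tested on simulated data. Python 3.11.15, pandas 2.3.3, numpy 2.4.6, scipy 1.17.1 and matplotlib 3.10.9 were used.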

Additional observations from a re-analysis of the deposited data

Results flagged for a closer look

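Wnt16 stood out because its 2 stress comparisons went opposite ways. The log2 ratio of JunB cKO over wild type was 1.77 after plucking and -2.25 in wounds, a difference of -4.02 (wounds minus plucking). This difference was not tested, since each table has 1 value per genotype.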

How the results depend on the processing

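With 1 value per genotype in every table, no difference has a replicate check, and counting intervals do not cover variation between mice. No paired analysis was possible because the wound table does not separate the libraries that the labels number. For the same reason the planned fits without replicate 1, without replicate 2, with limma and with a replicate block were not run. After plucking, 14 of the 15 calls were kept under every alternative with the 2-fold limit, and Fzd6 was lost among loci with the status OK. In unperturbed keratinocytes, the count of 7 higher genes was 19 with a pseudocount of 0.1 or 0.01 FPKM (37.8% and 39.0% of all genes). It was 16 at a 1.5-fold limit (26.2% of all genes) and 12 after centring on the median ratio (14.3%). After subtraction of the sensory receptor median it was 0 (3.54%), a step that left little room for calls at 1 to 2 FPKM. Thus 0 of the 7 were kept under every alternative. In wounds, the calls of Rspo1 and Wnt16 were kept under every alternative. The count of higher genes in wounds was 4 and 5 with pseudocounts of 0.1 and 0.01 (6.40% and 8.20% of all genes). At 1.5-fold it was 3 (5.56%). The count of lower genes was 3 and 5 with these pseudocounts (7.46% and 11.1%). Low levels limit the calls: of 3649 genes at 1 to 3 FPKM in wild type wounds, 33.5% were listed at 0 in plucked wild type skin. No called gene changed direction, but the median log2 ratio of the 49 genes in the unperturbed pair was 0.24 as deposited and -0.03 after subtraction of the sensory receptor median.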
